A study of Macaca mulatta with 16 samples.

Results

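Of 24333 regions of chromatin that were open in every T cell library of 2 rhesus macaques, 745 moved the same way in all 8 before-after comparisons of cyclodextrin dosing. They were 511 regions with stronger peaks after dosing (2.1% of the always open regions) and 234 with weaker peaks (0.962%). In all, 55449 regions were open in at least 1 library. ATAC-seq, in which a transposase cuts accessible DNA, was run on 10000 sorted blood cells per library. The peaks of 16 libraries that shared at least 1 bp were joined, and an always open region held a peak of each library. The strength of a region in a library was the percentile of its highest area score, the peak caller's measure of peak size, among all peaks of that library. A shift was the strength after minus the strength before dosing in the same animal and cell population, in percentile points. Members were chosen on these shifts, so their shifts are given as a description and no single region was tested for them.

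The 8 libraries taken after dosing came from macaques RhDBCb and RhM22, each given 1 ml/kg/day of a 15% (w/w) solution of 2-hydroxypropyl-beta-cyclodextrin (Kleptose HBP) under the skin for up to 120 days. The 8 libraries taken before dosing came from the same 2 animals, which the title of the series calls healthy. The 4 sorted populations were naive CD4+ T cells (CD4N), memory CD4+ T cells (CD4M), naive CD8+ T cells (CD8N) and memory CD8+ T cells (CD8M). Each of the 8 groups by time and population therefore held 2 libraries, 1 per animal. Untreated animals followed over the same time are not analysed here, so dosing and the passage of time cannot be told apart. Positions are given in rheMac10. Genes at the regions and their sequences are not given, and the sorted identities were not checked at marker genes, because no annotation or genome of that build was used.

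Cyclodextrins are rings of sugar units with a water-repelling cavity that takes up cholesterol, and the 2-hydroxypropyl form is used to draw cholesterol out of cells. Cholesterol in the plasma membrane of T cells helps to organise the antigen receptor. Chromatin that is open in every T cell population generally includes promoters of genes that all of these cells use, together with enhancers and insulator sites, and the size of an ATAC-seq peak reflects how often the site is cut across the cells of a sample. In sorted cells a weaker peak may come from fewer cells with the site open or from less opening in each cell, and these cannot be told apart. Strength here is a rank within a list, so weaker means lower in rank and need not mean a smaller peak.

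Lists held 37966 to 42034 peaks after dosing and 36307 to 41396 before. They covered 52.0 to 63.1 Mb after and 51.4 to 66.3 Mb before. Read depth was unknown. The 2 libraries of memory CD8+ cells of RhDBCb stood apart from the other pairs. In that pair the median peak was 192 bp wider after dosing (1228 bp after, 1036 bp before), while in each of the other 7 pairs it was 24 to 89 bp narrower. The median area score per bp was 1.08 after and 1.09 before in that pair, and it was higher after in the other 7, by 0.0368 to 0.115. The typical always open region also moved a little. The median shift of all 24333 regions ran from -0.42 points in memory CD8+ cells of RhDBCb to 1.36 points in memory CD4+ cells of RhDBCb. It was above 0 in 6 of 8 pairs and below 0 in memory CD8+ cells of both animals.

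Shifts of the 745 regions were mostly small, and regions that were no members reached further: mean shifts ran from -25.9 to 15.1 points among the members and from -27.0 to 21.0 points over all always open regions. The mean shift over the 8 pairs had a median of 3.47 points among the 511 stronger regions and of -4.09 points among the 234 weaker ones, against 0.39 points over all always open regions. Among the stronger regions the mean shift was under 2 points in 137, 2 to 5 points in 232, 5 to 10 points in 135 and at least 10 points in 7. Among the weaker regions these numbers were 38, 108, 66 and 22. The rule requires the same sign of shift in every pair. The signs of the medians by population and by animal were therefore fixed by the choice of members, and their sizes are given as a description. The median shift of the stronger regions was 2.81 points in naive CD4+, 3.54 in memory CD4+, 2.82 in naive CD8+ and 2.76 in memory CD8+ cells. For the weaker regions it was -4.25, -3.06, -3.58 and -3.91 points in the same order. By animal it was 3.65 points in RhDBCb and 2.70 in RhM22 for the stronger regions, and -3.49 and -4.26 points for the weaker ones.

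A region of 805 bp on chromosome 20, from 5168178 to 5168982, had the greatest mean shift upwards among the members. Its strength after dosing ran from the 17.6th to the 32.0th percentile (median 21.0), and before dosing from the 3.24th to the 15.4th (median 7.25). The 8 libraries after dosing all lay above the 8 before, and the shift was 15.1 ± 5.96 points (SD, n = 8 pairs). It was a weak peak at both times, and it was not open in all libraries with lists of equal length. Its strongest peak was wider after dosing in 8 of 8 pairs, by 180.2 bp on average, and its summit −log10 p averaged 4.01 after and 3.52 before.

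A second region on chromosome 20, from 40987 to 41743, lies close to the start of the chromosome's coordinates. It ran from the 29.9th to the 44.6th percentile after dosing (median 41.5) and from the 10.2nd to the 37.3rd before (median 28.1). The groups overlapped, since memory CD8+ cells of RhM22 were the highest before dosing and shifted by 4.63 points. The mean shift was 14.7 ± 8.71 points (SD, n = 8 pairs), with 34.5 points in memory CD4+ cells of RhDBCb.

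On chromosome 6, the region from 413941 to 415151 ran from the 34.8th to the 58.4th percentile after dosing (median 56.5) and from the 11.1st to the 54.4th before (median 47.1). Both CD8+ populations of RhDBCb were below all other libraries of the same time, at 34.8 and 35.7 after dosing and 11.1 and 12.3 before, and these 2 pairs had the greatest shifts, of 23.7 and 23.4 points. The mean shift was 11.4 ± 8.11 points (SD, n = 8 pairs). On chromosome 9, the region from 100083642 to 100084408 ran from the 21.7th to the 33.9th percentile after (median 30.1) and from the 0.262nd to the 29.0th before (median 17.7), with a mean shift of 10.4 ± 6.72 points (SD, n = 8 pairs).

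The other stronger regions that the naming rule gave had mean shifts of 8.99 to 10.3 points. By mean shift these were on chromosome X from 54659291 to 54661216, chromosome 1 from 61015831 to 61016591, chromosome 3 from 155038580 to 155040686 and chromosome 7 from 161721155 to 161722271. By the smallest of their 8 shifts they were on chromosome 4 from 134249590 to 134250347, chromosome 19 from 32873859 to 32874498 and chromosome 15 from 6369923 to 6370822. In these last 3 no pair shifted by less than 4.81 points. All 11 stronger regions named so far had exactly 1 peak in each of the 16 libraries. Their mean strength over all libraries lay between the 15.5th and the 51.3rd percentile, below the median of 67.4 for always open regions. The order of these regions depended on the scale. With ranks taken among always open regions alone, the mean shift was 4.22 points for the first region of chromosome 20, 3.86 on chromosome 9, 5.29 on chromosome 1, 6.23 on chromosome 7, 3.197 on chromosome 4 and 3.61 on chromosome 19. On that scale the second region of chromosome 20 had the greatest of the 11, at 9.67 points, followed by 9.36 on chromosome 3 and 9.17 on chromosome 6. The regions of chromosomes 1, 4 and 19 no longer moved upwards in every pair with these ranks.

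**Figure D1:**
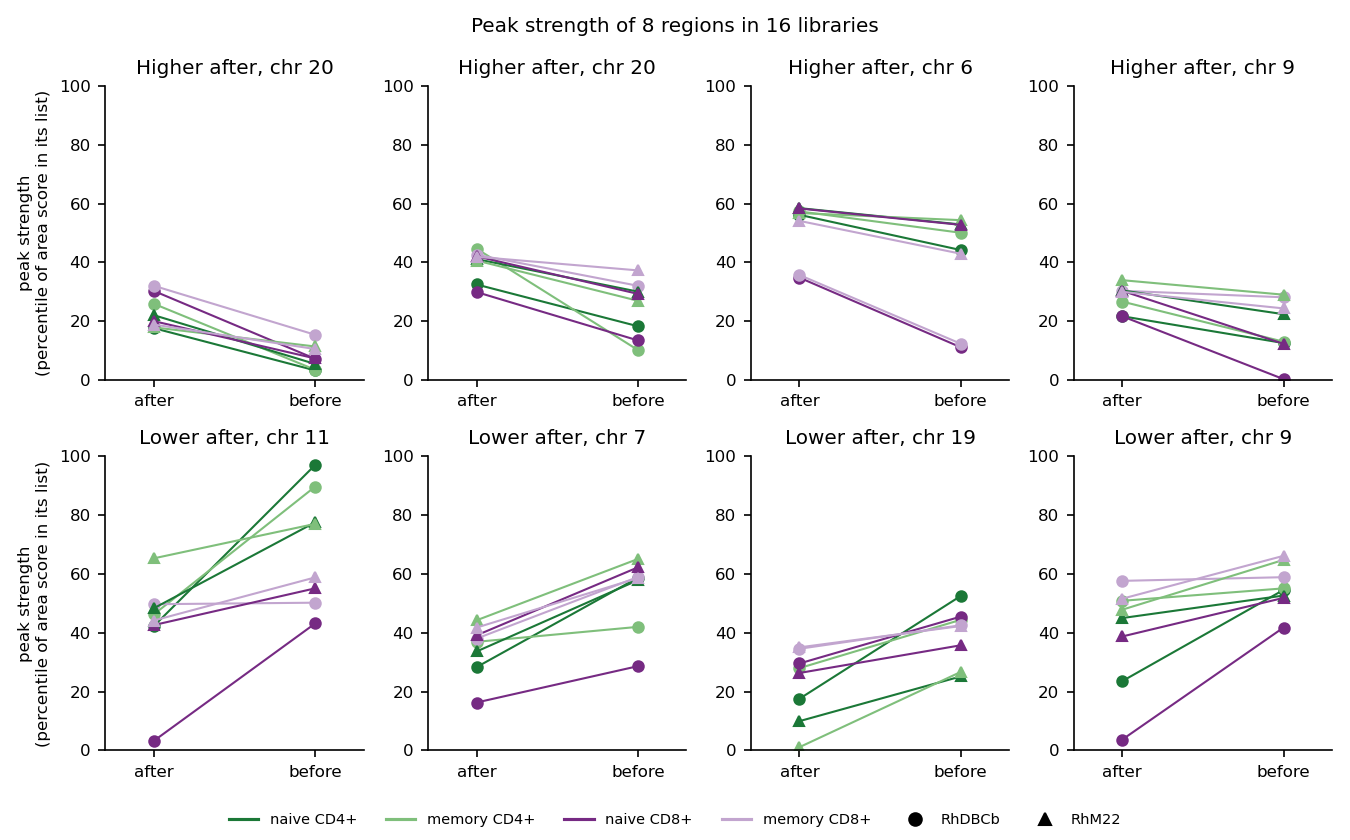
Peak strength, as the percentile of the area score within its own list (vertical axis), after and before cyclodextrin (horizontal axis) for the 4 members with the greatest mean shift upwards (upper row) and downwards (lower row). Each line joins 1 population of 1 animal, and only in the first region, on chromosome 20, do the 8 points after dosing all lie above the 8 before.

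The greatest mean shift downwards among the members was that of a region of 13044 bp on chromosome 11, from 119800442 to 119813485. It ran from the 3.25th to the 65.3rd percentile after dosing (median 45.2) and from the 43.2nd to the 97.1st before (median 68.0). The groups overlapped, and the shift was -25.9 ± 18.9 points (SD, n = 8 pairs), from -54.8 points in naive CD4+ cells to -0.52 points in memory CD8+ cells, both of RhDBCb. The region was made of several peaks, 36 over the 8 libraries after dosing and 29 over the 8 before, and the width of its strongest peak changed by -3429 bp on average. When the areas of all peaks in the region were summed before ranking, the mean shift was -17.1 points and at least 1 pair no longer moved downwards.

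A region on chromosome 7, from 32283638 to 32285945, shifted by -19.2 ± 7.79 points (SD, n = 8 pairs). It ran from the 16.3rd to the 44.3rd percentile after dosing (median 37.5) and from the 28.7th to the 65.1st before (median 58.7). The 6 libraries before dosing other than the 2 lowest lay above all 8 libraries after dosing, and it too had more peaks after dosing, 16 against 10. With summed areas its mean shift was -7.51 points. On chromosome 19, the region from 49446868 to 49449048 had 1 peak in every library. It ran from the 1.10th to the 35.1st percentile after dosing (median 27.2) and from the 25.2nd to the 52.6th before (median 42.5). Its shift of -16.6 ± 9.52 points (SD, n = 8 pairs) was at least 7.26 points downwards in each pair, the greatest smallest shift of all weaker members.

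The other weaker regions named by mean shift were on chromosome 9 from 6867902 to 6870945 (-15.9 points), chromosome 2 from 91241307 to 91244750 (-15.7), chromosome 13 from 14630695 to 14632294 (-15.2), and chromosome 1 from 188655055 to 188656705 (-13.3) and from 131647064 to 131650824 (-13.1). The last had the highest mean strength of the 20 named regions, with a median at the 70.4th percentile after and the 88.4th before. It had 13 peaks over the libraries after dosing and 8 over those before, and its mean shift was -5.96 points with summed areas and -20.7 points with ranks among always open regions alone. The region on chromosome 1 from 188655055 had -7.60 points with those ranks. By its smallest shift a region on chromosome 7, from 36565016 to 36565988, completed the list, with a mean shift of -11.5 points.

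Complete separation of the 8 libraries after dosing from the 8 before was rare. It was seen in 5 always open regions, 4 stronger and 1 weaker after dosing. Such separation places a region among the 745 by definition. Besides the first region of chromosome 20, these were 2 on chromosome 14, from 19528928 to 19530407 with 59.5 ± 0.748 after and 56.1 ± 1.15 before and from 66374312 to 66375305 with 47.0 ± 1.79 after and 42.4 ± 1.58 before. A further one lay on chromosome 19 from 47792467 to 47793648, with 51.8 ± 1.95 after and 45.8 ± 2.63 before. The weaker one lay on chromosome 5 from 119036916 to 119038140, with 47.0 ± 2.61 after and 52.8 ± 2.12 before. These values are mean percentiles (SD, n = 8 libraries), and these 4 regions were named after their values were seen.

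The rule has its threshold at 0, and regions on either side of it had nearly the same values. The stronger member nearest to it, on chromosome 6 from 76062462 to 76067024, had a smallest shift of 4.24e-05 points. The nearest region left out, on chromosome 19 from 41092076 to 41093332, was stronger in 7 pairs and had -0.00108 points in the remaining one, with a mean shift of 2.01 points. Among weaker members the nearest to the threshold had -0.00367 points, on chromosome 4 from 140040294 to 140044132, and the nearest region left out had 0.00219 points in 1 pair, on chromosome 12 from 121725771 to 121731869. Regions stronger in 7 of 8 pairs numbered 2567, and those stronger in 1 of 8 numbered 988.

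The number of regions that moved one way in all pairs was compared with the number found when after and before were exchanged in any set of pairs. In the exact sign-flip test over the 8 pairs, two-sided, 3 of the 128 distinct patterns gave 745 regions or more, so that p = 0.0234, where the smallest possible was 0.00781. The median pattern gave 134.5 regions. In exact one-sided tests the 511 stronger regions had p = 0.0117 and the 234 weaker ones p = 0.0742, which did not pass 0.05. Both patterns that gave more regions than the samples as labelled exchanged the memory CD8+ pair of RhDBCb. With that pair alone exchanged 1456 regions moved one way, and with naive CD8+ cells of RhM22 exchanged as well 897 did. The 4 pairs of an animal are not independent of each other, and with whole animals exchanged the smallest p was 0.5, which is also the value found. Each animal alone had 5005 such regions in RhDBCb and 5857 in RhM22, with p = 0.25 and p = 0.125 in exact sign-flip tests over 4 pairs that could not go below 0.125. The excess of stronger over weaker regions depended on the scale: with shifts measured against the median shift of the pair there were 355 stronger and 344 weaker regions. Against the median of regions of like strength there were 345 and 366, with ranks taken among always open regions alone 408 and 305, and with stricter peaks 224 and 174. With shifts against the pair median the exact one-sided sign-flip tests gave p = 0.0195 for the stronger and p = 0.0234 for the weaker regions. Over all alternative settings with 8 pairs, this one-sided p of the weaker regions ran from 0.0156 to 0.164. It did not pass 0.05 with summed areas (0.0625), 500 bp windows around summits (0.0742), autosomes only (0.0742), 1 peak in every library (0.113) or stricter peaks (0.164). With 1 pair left out it ran from 0.0469 to 0.172. For the stronger regions, only stricter peaks gave a one-sided p above 0.05 over 8 pairs, at 0.0977.

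**Figure D2:**
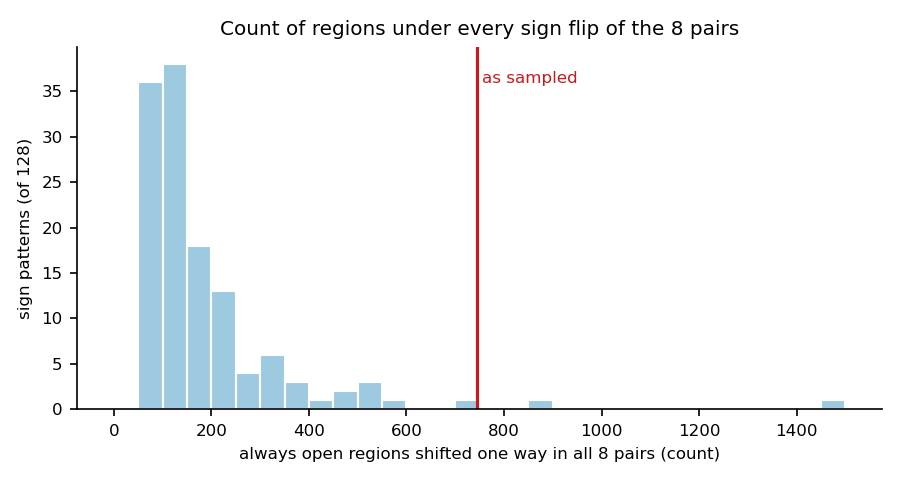
Number of always open regions that moved one way in all 8 pairs (horizontal axis) under the 128 distinct exchanges of after and before (vertical axis, number of patterns). The red line marks the 745 regions of the samples as labelled, and 2 patterns lie to its right, at 897 and 1456.

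Regions chosen on 7 pairs tended to move the same way in the eighth, with the exception of memory CD8+ cells of RhDBCb. Of regions stronger in the other 7 pairs, 56.2% to 90.1% were also stronger in the pair left out, in each of the 7 pairs other than that one, against 47.7% to 72.5% of all always open regions in the same pairs. The excess over all regions was 8.44 to 18.7 percentage points. Of regions weaker in the other 7 pairs, 60.9% to 82.7% were weaker in the pair left out, against 27.5% to 52.3% of all regions, an excess of 13.96 to 41.4 percentage points. In memory CD8+ cells of RhDBCb the order was turned round. Only 30.7% of 1663 regions stronger in the other 7 pairs were stronger there, against 43.9% of all, and 43.5% of 538 regions weaker in the others were weaker there, against 56.1%. These shares are a description, since regions are not replicates and pairs of the same animal are not independent. In every pair left out, the regions with the same sign were the same 511 stronger or 234 weaker members. The shares therefore give the choice of members no separate support.

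**Figure D3:**
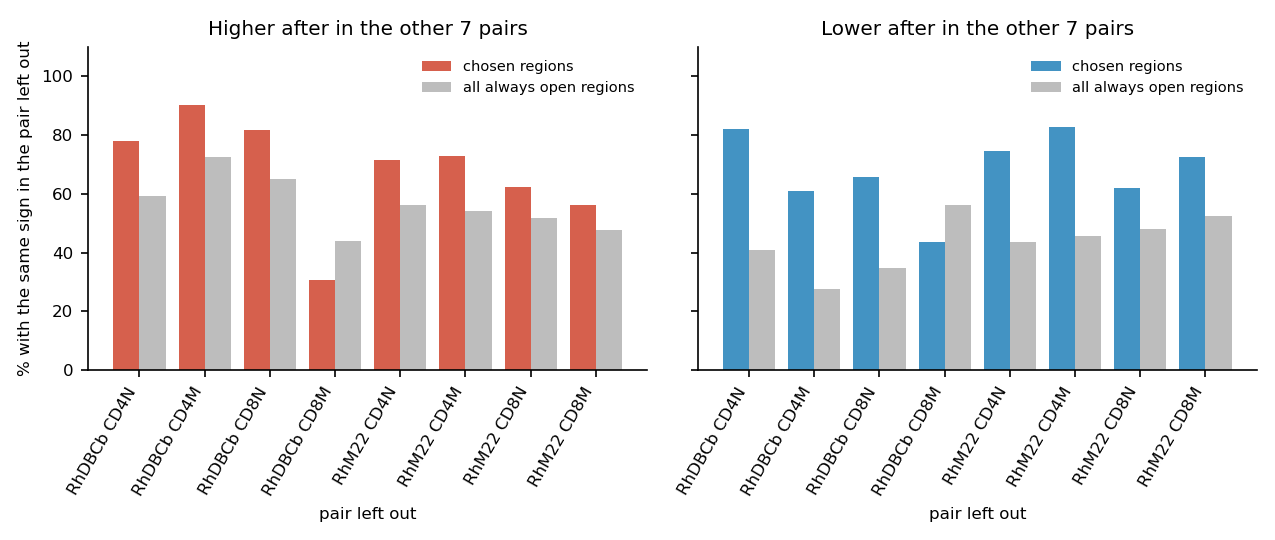
Share of regions with the same sign of shift in a pair that was left out (vertical axis, %) for regions that moved one way in the other 7 pairs (coloured) and for all always open regions (grey), by pair (horizontal axis). Coloured bars stand above grey ones in 7 of 8 pairs and below them in memory CD8+ cells of RhDBCb, at 30.7% against 43.9% and 43.5% against 56.1%.

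Reading one animal's regions in the other gave smaller differences. Of 3734 regions stronger in all 4 pairs of RhDBCb, 13.7% were stronger in all 4 pairs of RhM22, against 13.3% of all always open regions. Of 1271 regions weaker in all 4 pairs of RhDBCb, 18.4% were weaker in all 4 of RhM22, against 10.8%. The regions that moved one way in both animals are the 511 stronger and 234 weaker members themselves. By population, regions weaker in RhDBCb were weaker in 66.8% of cases in memory CD4+ cells of RhM22, against 45.7% of all regions, but in 49.3% of cases in naive CD8+ cells, against 48.1%. Regions chosen in RhM22 were stronger in 76.9% of cases in naive CD4+ cells of RhDBCb, against 59.3% of all, and in 31.4% of cases in memory CD8+ cells, against 43.9%. The share exceeded that of all regions in both CD4+ populations, whichever animal and direction the regions were chosen in, and fell short of it in memory CD8+ cells of RhDBCb in both directions. Regions stronger in RhDBCb had no excess in either CD8+ population of RhM22, with 51.3% against 51.9% in naive and 46.9% against 47.7% in memory cells. All shares between animals are a description, since regions are not replicates. They come from the shifts that the rule used and give the choice of members no separate support.

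The same rule applied to cell type gave far more regions. Strength differed one way in all 8 matched pairs of naive and memory libraries in 7015 regions (28.8%), and in all 8 pairs of CD4+ and CD8+ libraries in 4489 (18.4%), of which 2852 (11.7%) were higher in CD4+ and 1637 (6.73%) higher in CD8+ cells. Between the animals, RhDBCb and RhM22, 2784 regions (11.4%) differed one way in all 8 pairs matched by population and time, 973 (4%) higher in RhDBCb and 1811 (7.44%) higher in RhM22. Of the 511 stronger members 21 (4.11%) were higher in RhDBCb and 81 (15.9%) higher in RhM22, and of the 234 weaker members 22 (9.40%) were higher in RhDBCb and 20 (8.55%) higher in RhM22. The 745 regions of the before-after comparison were 3.06% of the same 24333.

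Members that were stronger after dosing were more often naive regions than always open regions at large, and members that were weaker after dosing were more often memory regions. Memory T cells arise when naive ones respond to antigen. This contrast was not used in choosing the members, and all 24333 regions were tested for it in one fit of limma, two-sided, with Benjamini-Hochberg adjusted p under 0.05 as the threshold. Either way 194 of the 511 stronger (38.0%) and 125 of the 234 weaker regions (53.4%) passed, against 36.9% of all. Of the 511 stronger regions, 154 (30.1%) were higher in naive cells and 40 (7.83%) higher in memory cells. Of the 234 weaker regions, 20 (8.55%) were higher in naive and 105 (44.9%) higher in memory cells. Over all always open regions 18.2% were higher in naive and 18.7% higher in memory cells. The median difference of naive minus memory strength was 1.22 points in the stronger regions, -3.58 in the weaker ones and 0.11 over all regions.

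The direction of this split did not rest on the scale of strength. With members chosen under these 8 settings, 22.7% to 29.2% of stronger members and 7.34% to 10.5% of weaker members were higher in naive cells in all 8 matched pairs. Those higher in memory cells were 7.04% to 8.82% of stronger and 33.1% to 40.2% of weaker members. All always open regions had 14.4% in either direction in the main setting, and no share of their own is given for the other settings. Without the memory CD8+ pair of RhDBCb, 22.1% of 1663 stronger regions were higher in naive cells and 6.31% higher in memory cells, against 9.29% and 34.0% of 538 weaker regions.

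Among the members, single regions spanned both directions of cell state. The 4 that follow were picked after their values were seen, as those with the greatest difference of each kind. On chromosome 10, the region from 4113734 to 4116036 ran from the 72.9th to the 87.2nd percentile in naive libraries and from the 27.2nd to the 62.9th in memory libraries, which did not overlap. It was higher in naive cells by 33.8 ± 3.96 points (SE, limma adjusted p = 2.01e-05) and shifted by 5.80 points after dosing. On chromosome 7, the region from 165097617 to 165100574 ran from the 23.6th to the 61.9th percentile in naive and from the 71.6th to the 85.6th in memory libraries, again without overlap, a difference of -38.1 ± 3.64 points (SE, limma adjusted p = 3.32e-06), and shifted by -8.75 points after dosing.

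The reverse combinations also occurred. A region on chromosome 19, from 18017394 to 18022179, ran from the 2.97th to the 42.5th percentile in naive and from the 43.7th to the 70.6th in memory libraries (-31.1 ± 2.84 points, SE, limma adjusted p = 2.27e-06), yet was among the stronger members with a shift of 8.93 points. A region on chromosome 6, from 63732861 to 63736086, was higher in naive cells by 23.9 ± 3.18 points (SE, limma adjusted p = 5.84e-05) and among the weaker members, with a shift of -11.7 points. Of the 20 regions named by rule, 5 passed the threshold as higher in naive cells, on chromosomes X, 3, 13 and 15 and on chromosome 1 from 188655055. As higher in memory cells 2 passed, on chromosome 9 from 6867902 and on chromosome 1 from 131647064.

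Lineage divided the members less than state did. Of the 511 stronger regions, 92 (18.0%) were higher in CD4+ and 21 (4.11%) higher in CD8+ cells by the same fit. Of the 234 weaker regions, 45 (19.2%) were higher in CD4+ and 25 (10.7%) in CD8+ cells, against 16.3% and 7.84% of all always open regions. Either way 22.1% of stronger and 29.9% of weaker members passed, against 24.1% of all. The region of greatest downward shift, on chromosome 11 from 119800442, was higher in CD4+ cells by 24.6 ± 6.06 points (SE, limma adjusted p = 0.00875). On chromosome X the region from 54659291 was higher in naive than memory cells by 13.8 ± 2.97 points and higher in CD4+ than CD8+ cells by 14.04 ± 2.97 points (SE, limma adjusted p = 0.00233 and 0.00342). Only 2 animals stand behind these tests, so that the p-values measure the spread between libraries.

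**Figure D4:**
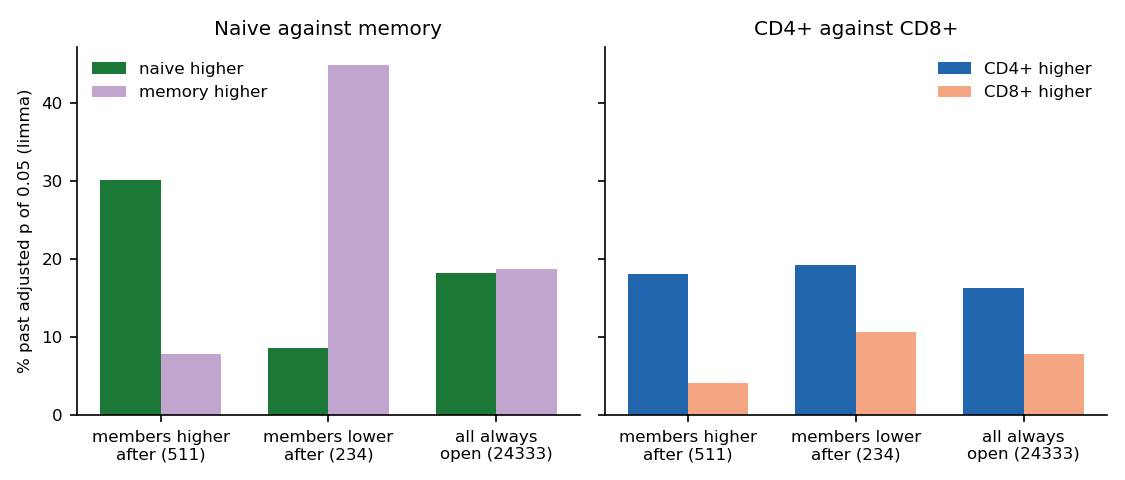
Share of regions past a limma adjusted p of 0.05 (vertical axis, %) in the 511 members stronger after dosing, the 234 members weaker after dosing and all 24333 always open regions (horizontal axis), for naive against memory cells (left) and CD4+ against CD8+ cells (right). Naive regions are 30.1% of the stronger members and memory regions 44.9% of the weaker ones, while all regions have 18.2% and 18.7%.

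Stronger and weaker members also differed in size and in the number of their peaks. The stronger regions had a median width of 1507 bp, the weaker ones of 2312 bp and all always open regions of 2229 bp. Stronger members were 4.29% of the 2750 always open regions of at most 1000 bp and 0.733% of the 1910 regions of at least 5003 bp. Weaker members were 0.4% of the narrow and 1.47% of the wide class. Of the stronger regions 478 (93.5%) had 1 peak in each of the 16 libraries, as did 142 (60.7%) of the weaker ones and 76.0% of all. In 59 of the weaker regions (25.2%) the 8 lists after dosing held more peaks than the 8 before, against 1.37% of the stronger regions and 11.0% of all. The part of such splitting in the weaker strengths was not tested.

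Height and width of the strongest peak, which together make up its area, moved differently. The area per bp was higher after dosing in all 8 pairs in 174 of the stronger members (34.1%), in 3 of the weaker ones (1.28%) and in 8.28% of all always open regions. It was lower in all 8 pairs in none of the stronger members, in 5 of the weaker ones (2.14%) and in 26 of all regions (0.107%). Its median change over all always open regions was above 0 in each of the 8 pairs, from 0.0275 in memory CD8+ cells of RhDBCb to 0.217 in memory CD4+ cells of RhDBCb. Among the weaker members the median change in area per bp ran from -0.0537 in memory CD4+ cells of RhM22 to 0.0376 in memory CD4+ cells of RhDBCb. Width was greater in all 8 pairs in 12 (2.35%) and smaller in 2 (0.391%) of the stronger members. Of the weaker members it was greater in 0 and smaller in 13 (5.56%). Over all always open regions these numbers were 104 (0.427%) and 231 (0.949%). The median change in width of the weaker members ran from -274 bp in memory CD8+ cells of RhM22 to 79.5 bp in memory CD8+ cells of RhDBCb. Over all always open regions it was -144 and 175 bp in the same pairs. These measures come from the same before-after contrast as the rule and are given as description. By strength, stronger members were 2.82% of always open regions between the 42.9th and the 59.6th percentile of mean strength and 1.11% of those between the 74.7th and the 87.1st.

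Members were spread unevenly over the chromosomes. Stronger members made up 3.78% of the always open regions of chromosome 19, 3.23% on X, 3.11% on chromosome 10, 2.87% on chromosome 20 and 2.79% on chromosome 16, against 2.1% overall. Weaker members were 0.199% of the regions of chromosome 19 (3 regions), 0.103% on chromosome 20 (1 region) and 0.266% on chromosome 16 (4 regions), against 0.962% overall. Chromosome 1 had 51 weaker and 44 stronger members, 1.97% and 1.70% of its always open regions, and chromosome 17 had 7 weaker and 3 stronger ones. Chromosome 19 is the counterpart of the gene-dense human chromosome of the same number, and it had 43.8 regions per Mb here, the highest density of the 21 chromosomes. Across the 21 chromosomes the density of regions and the share of stronger members had a Spearman rho of 0.39 and a Pearson r of 0.57, given as a description, since the chromosomes share all libraries. Chromosome X, with 9.79 regions per Mb the sparsest, went against that relation.

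The typical always open region of a chromosome also differed between chromosomes. The median of the mean shift was 0.75 points on chromosome 19, 0.69 on chromosome 20 and 1.00 on X, against 0.39 points over all chromosomes. When shifts were measured against the median of the same chromosome and pair, 361 regions were stronger and 344 weaker, with 8.86% of the stronger and 4.94% of the weaker ones on chromosome 19. With shifts measured against 0, 11.2% of stronger and 1.28% of weaker members lay there, while 6.20% of all always open regions did. Base composition was not measured, and its part in this pattern was not tested.

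**Figure D5:**
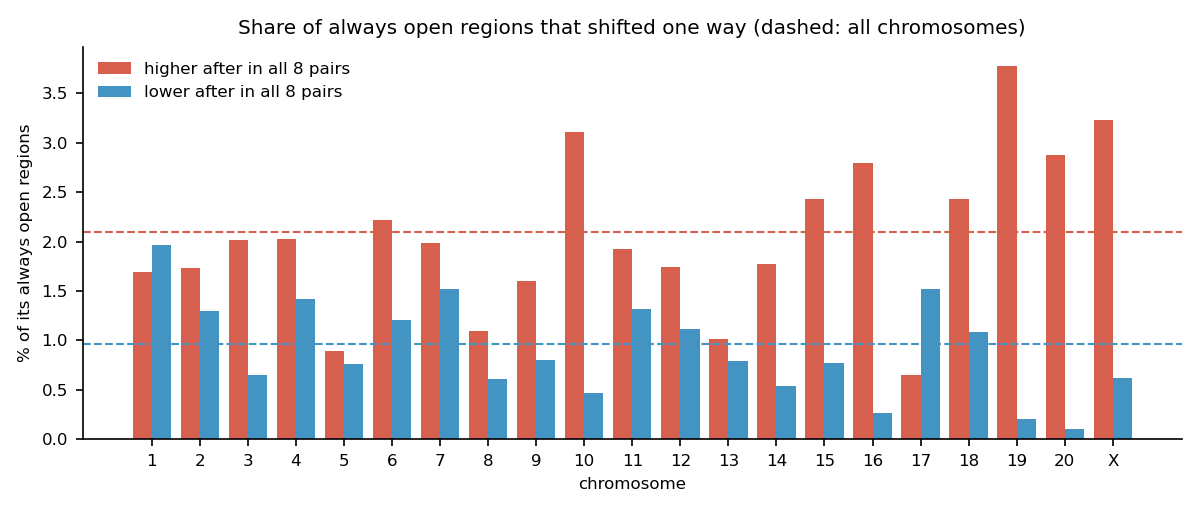
Share of the always open regions of each chromosome (vertical axis, %) that were stronger (red) or weaker (blue) after dosing in all 8 pairs, by chromosome (horizontal axis). Dashed lines mark the shares over all chromosomes, 2.1% and 0.962%, and chromosome 19 has 3.78% stronger and 0.199% weaker regions.

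Of the stronger regions 48 (9.39%) had another stronger member within 50 kb, always in groups of 2, and of the weaker ones 21 (8.97%) had another weaker member as near. The same share for always open regions drawn in like numbers was not computed, so these shares do not show whether members cluster. The one group of 3 was on chromosome 1 from 29942959 to 30005064, where 3 weaker members with mean shifts of -3.87 to -2.64 points lay among 5 always open regions, of which the other 2 had mean shifts above 0.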

How the data were processed

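Members and alternatives were chosen with earlier results of these data known. The authors deposited 1 peak list per library, so replicates were not pooled. Tools in the submitters' processing notes are Genrich 0.6, cutadapt 1.18 and Bowtie2 2.3.4.1, and the build is rheMac10. Their settings, duplicate removal and any shift of reads at the cut site were not given in the sources used. The deposited values per peak are an area score (lowest 200.0) and the summit −log10 p (2.42 to 16.3). Both belong to their own list, so scores were ranked within a list. Depth was unknown, and ranks, list lengths and detection may differ with depth. Pairs and animals follow the titles, which name 2 animals, each with every population before and after dosing. File names number the second animal differently by population. Before-after pairs hold either way, but if these were different animals, the matched naive-memory and CD4-CD8 pairs of RhM22, the animal term and the flips of whole animals would not.

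Peaks sharing at least 1 bp were merged. State and lineage were fitted with limma 3.58.1 (R 4.3.3) on strengths of all 24333 regions in 16 libraries, with state, lineage and time as terms and a variance trend. Zero shifts counted as neither direction. Regions named are, in each direction, the 8 of greatest mean shift and the 4 of greatest smallest shift. Others were named after their values were seen, as the text says. Readings in a pair or animal left out, the chromosome and strength-tenth settings and the summed areas of named regions were added after the data were examined. The code of both tests was run on simulated data with independent noise and known changes. Those data held no likeness between libraries of an animal, so the run does not bear on that limit of the p-values. Alternatives are given in the closing part. Annotation and sequence of members were planned only for a reference of rheMac10 and were not run. Python 3.11.15, numpy 2.4.6, pandas 2.3.3, scipy 1.17.1 and matplotlib 3.10.9 were used.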

Additional observations from a re-analysis of the deposited data

Results flagged for a closer look

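Of the values examined, 3 stood apart from the other values of their set by Dixon's test over 8 pairs, at a level that chance alone reaches in about 1 in 20 sets. For this, 20 named regions and 4 library measures were looked at. The region on chromosome 20 from 40987 to 41743 shifted by 34.5 points in memory CD4+ cells of RhDBCb, far above its other 7 shifts. The region on chromosome 7 from 36565016 to 36565988 shifted by -34.6 points in memory CD8+ cells of RhDBCb, far below its other 7. The median peak width changed by 192 bp in memory CD8+ cells of RhDBCb, the one pair in which it grew.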

How the results depend on the processing

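The total of 745 regions lay between 682 and 766 with ranks among always open regions, log2 area scores, shifts against the pair, chromosome or strength-tenth median, lists of equal length, summed areas, 500 bp windows and autosomes only. The regions themselves changed more: of the 511 stronger and 234 weaker members, 264 and 138 remained with log2 area scores, 294 and 187 with ranks among always open regions, 252 and 188 against the strength-tenth median, 318 and 201 against the pair median, 314 and 196 against the chromosome median and 362 and 158 with summed areas. None changed direction in these 6 settings. With the stricter peaks (summit −log10 p of at least 3.42) the total was 398, with 224 stronger regions and exact sign-flip p = 0.0625. Weaker regions numbered 142 where every library had 1 peak and 366 against the strength-tenth median. By exact sign flips, RhDBCb alone gave 5005 regions (3734 stronger, 1271 weaker, p = 0.25), RhM22 alone 5857 (3228, 2629, p = 0.125), and flips of whole animals p = 0.5. None of these 3 designs can reach 0.05. Leaving out each pair gave 945 to 2233 regions (568 to 1684 stronger, 285 to 549 weaker) over 7 pairs, and p from 0.0156 to 0.0469, with 2233 without memory CD8+ cells of RhDBCb and 1203 and 1262 without naive and memory CD8+ cells of RhM22. Fewer pairs make the rule easier to meet.

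With the replicate block, the animal as a term, 10237 regions differed between naive and memory cells in place of 8984 and 7118 between CD4+ and CD8+ cells in place of 5869. The block and the other alternatives moved no count of regions or members in either contrast by more than 1.5 times. Leaving out 1 library gave 8074 to 8857 regions for state and 4935 to 6327 for lineage. Named regions kept their direction in every pair in 83 of 89 recomputed values. In the other 6 the mean kept its sign, and 11 of the 20 named regions were not open in all lists of equal length. The members of greatest mean shift upwards and downwards, on chromosomes 20 and 11, were among these.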
